A study of Canis lupus familiaris with 42 samples.

Results

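The genes described here encode the T cell receptor complex and the proteins closest to it in signalling. The 10 genes were CD3D, CD3E, CD3G, CD247, LCK, ZAP70, CD2, CD5, CD8A and CD4, listed by name for their role. Of the 10, 9 were measured by a probe set annotated with that symbol alone, out of 15115 named genes on the array. ZAP70, the kinase that docks on the phosphorylated receptor chains, was not analysed here. Of several probe sets of a gene, that with the highest mean on the 42 arrays stood for it, and the other served as a check.

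The study measured RNA of spontaneous sarcomas of pet dogs on Affymetrix canine arrays. The 21 arrays labelled hyperthermia held tumour tissue taken after the first heat treatment, which was given beside radiotherapy, and the 21 arrays with no treatment held tissue of the same tumours taken before it. The series describes 22 tumours, and 21 pairs were analysed here, matched through the code that opens each title and numbered 1 to 21 as names only. The time between the samples, the radiation given by then, the age and breed of the dogs and the sarcoma type were not given in the sources used here. No untreated tumour was sampled again, so each change is one between a first and a second sample. In bulk tissue, fewer T cells and less RNA of a gene per T cell cannot be told apart.

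The T cell receptor recognises peptides held by major histocompatibility molecules but has no signalling tail of its own. It relies on the CD3 chains and on the zeta chain, whose tails carry tyrosine motifs. LCK, brought in by CD4 or CD8, phosphorylates these motifs, and ZAP70 then binds them and passes the signal on. CD2 is an adhesion receptor that strengthens contact with the target cell, and CD5 dampens receptor signalling. T cells that enter a tumour are read in bulk RNA mainly through the CD3 chains, which few other cells make. In the dog CD4 is less specific, since canine neutrophils carry it as well as helper T cells.

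Levels are log2 values from RMA, which subtracts background, brings the arrays to a common distribution and summarises each probe set. The labelled tissue was checked on its markers. The mean over 8 fibroblast and sarcoma genes ran from 11.5 to 12.9 after and from 11.7 to 12.8 before treatment. That over 4 epithelial genes ran from 3.22 through a median of 3.60 to 5.76 after and from 3.26 through 3.61 to 4.71 before, so epithelial genes were not low in every array. KRT8 reached 8.07 after and 7.37 before, and EPCAM reached 7.69 after and 5.87 before. In tumour 15, which also had some of the lowest CD3D and CD3G changes, the epithelial genes KRT18 (2.21) and EPCAM (1.82) and the collagen gene COL1A1 (1.30) had their highest changes of the 21 tumours. Their part in the T cell values was not tested. Among the T cell genes, none of the 9 chosen probe sets had a mean under the 25th percentile of all probe sets, a level of 3.95. CD3G lay near it, at the 26.6th percentile, followed by CD3D (32.5), CD247 (35.5), LCK (39.9) and CD8A (48.1). The median of CD3G over tumours was under that level both before (3.87) and after treatment (3.83). CD5 (51.1), CD2 (63.3), CD3E (64.2) and CD4 (64.8) lay above the middle of the array. The second probe sets of LCK (12.5) and CD8A (1.09) lay at the low end. No filter on low values was used.

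After treatment the 3 CD3 chain genes CD3D, CD3E and CD3G and the kinase gene LCK were lower. These 4 of the 9 measured genes passed the test, all of them lower, and 0 passed as higher. The test was limma with each tumour as a block, two-sided, with p-values adjusted by the Benjamini-Hochberg method over 42924 probe sets and a threshold of 0.05. By the same rule 3.13% of all 15115 genes were lower and 4.02% were higher. The mean change was below 0 in 8 of the 9 genes, against 46.9% of all genes. The median change of the 9 genes was -0.17 on the log2 scale, against 0.01 over all genes. Over all probe sets 5.96% passed, 2.99% lower and 2.97% higher.

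CD3D, the delta chain, fell most of the 9. Its level had a lowest value of 3.41, a median of 3.93 and a highest of 5.64 after treatment, against 3.56, 4.12 and 7.26 before. It was lower in 17 of 21 tumours, and the groups overlapped widely. The change was -0.57 ± 0.15 on the log2 scale (SE, n = 21; limma adjusted p = 0.0239), which corresponds to a level that fell by 32.7%. The other probe set of CD3D changed by -0.81 ± 0.16 and was lower in 20 of 21 tumours (limma adjusted p = 0.00508).

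CD3G, the gamma chain, shared this pattern at a lower level. Its lowest, median and highest levels were 3.28, 3.83 and 4.55 after treatment, against 3.55, 3.87 and 6.55 before. The medians of the groups lay close together, and the upper ends lay far apart. The change was -0.42 ± 0.12 (SE, n = 21; limma adjusted p = 0.0305), lower in 16 of 21 tumours. CD3G is the only CD3 gene with a single probe set here. CD3D, CD3E and CD3G are neighbours on the dog genome in the RefSeq annotation of the UU_Cfam_GSD_1.0 assembly.

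CD3E, the epsilon chain, was the best placed of the CD3 genes on the array, and its change was the smallest of the 3. Its levels ran from 5.20 through a median of 6.13 to 6.88 after treatment, against 5.37, 6.34 and 7.26 before. The range moved down as a whole, with 16 of 21 tumours lower and a change of -0.23 ± 0.07 (SE, n = 21; limma adjusted p = 0.042). The other CD3E probe set, at the 31.6th percentile, changed by -0.39 ± 0.13 and did not pass (limma adjusted p = 0.0668). The call on CD3E was the least stable of the 4. When each tumour was left out in turn, it was lost in 13 of 21 fits, with changes from -0.26 to -0.20 and adjusted p up to 0.0808.

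LCK, the kinase that starts the signal, had the smallest p of the 9 genes. Its lowest, median and highest levels were 3.74, 4.39 and 5.63 after treatment, against 4.23, 4.71 and 6.39 before. It was lower in 19 of 21 tumours, all but tumours 11 and 16, with a change of -0.44 ± 0.10 (SE, n = 21; limma adjusted p = 0.00862). The calls on LCK and CD3D held whichever single tumour was dropped. The second LCK probe set, near the low end of the array, changed by -0.11 ± 0.05 and did not pass (limma adjusted p = 0.237).

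CD247 encodes the zeta chain, the receptor tail with the most tyrosine motifs. It did not pass, although 16 of 21 tumours had a lower value. Its levels were 4.15, 4.41 and 4.96 (lowest, median, highest) after treatment and 4.13, 4.47 and 5.47 before. The change was -0.11 ± 0.06 (SE, n = 21; limma adjusted p = 0.338). Tumour 1 changed by -1.003, and the next lowest, tumour 3, by -0.46.

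**Figure D1:**
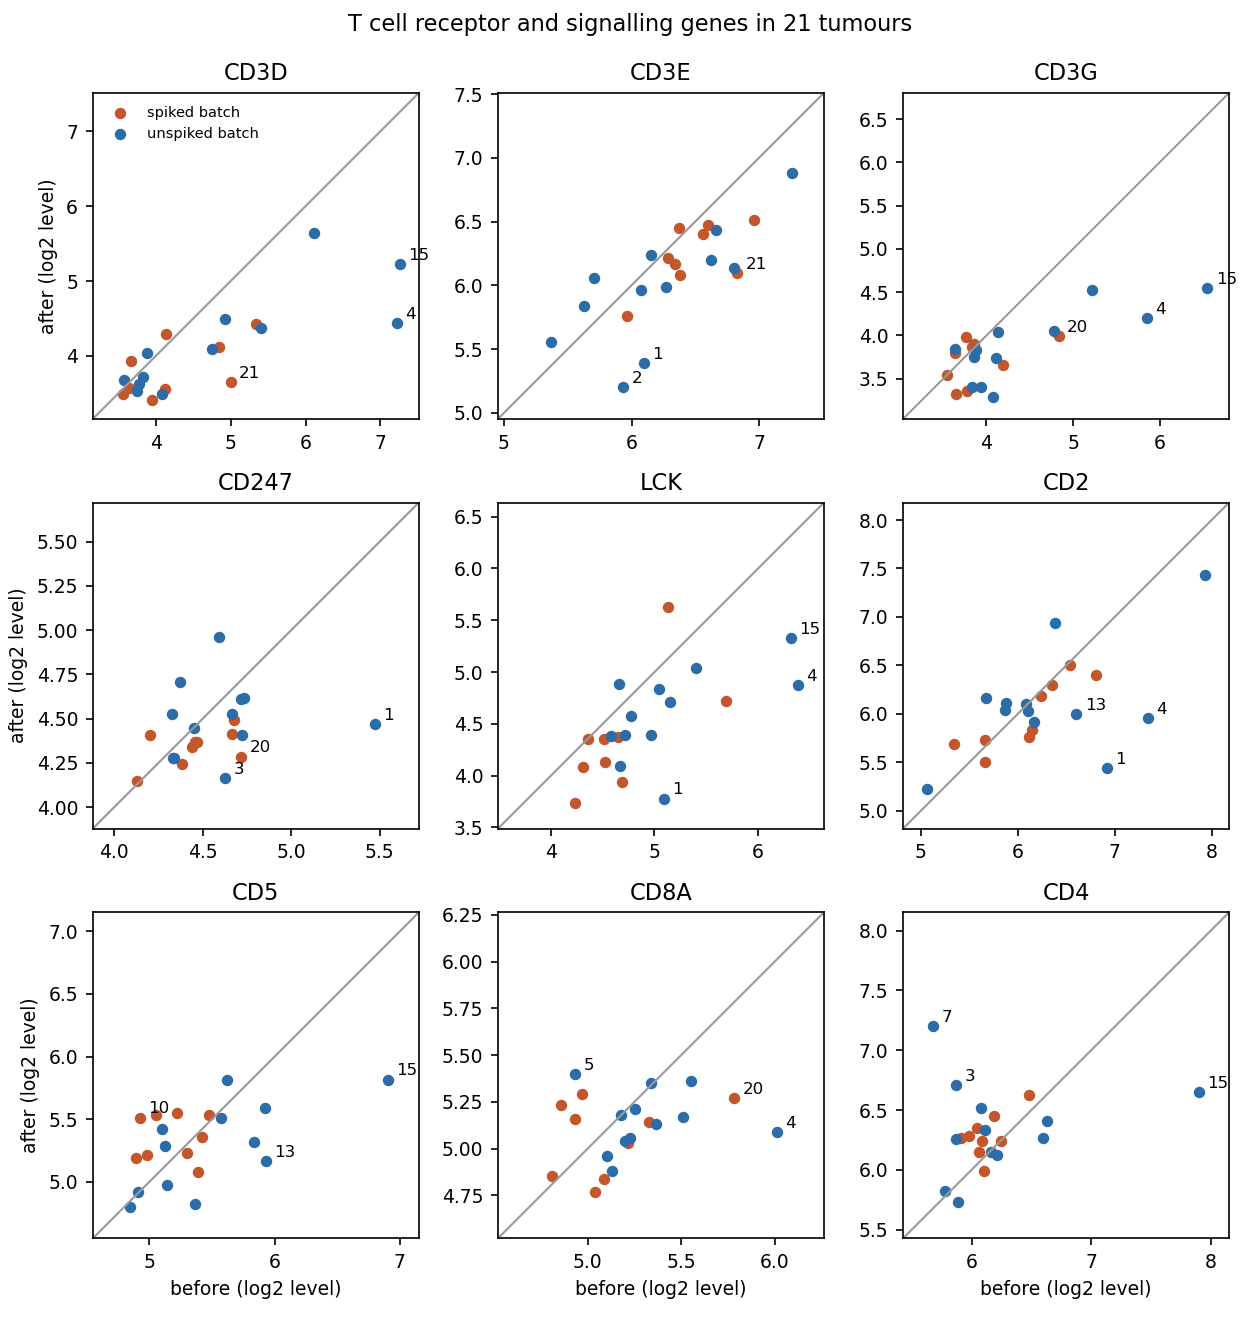
Log2 level after treatment (y) against before (x) for the 9 T cell genes, a point per tumour, with the line of equal levels; colours mark the labelling batches inferred from spike-in controls, and numbers mark the 3 tumours with the largest change in size. For CD3D and CD3G the points with a high first level, tumours 4 and 15, lie far below the line, whereas most CD4 points lie above it.

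The adhesion receptor CD2 and the inhibitory receptor CD5 did not pass. CD2 ran from 5.23 through 6.03 to 7.44 after treatment, against 5.07, 6.14 and 7.93 before, a change of -0.17 ± 0.11 with 13 of 21 tumours lower (SE, n = 21; limma adjusted p = 0.401). Its second probe set changed by -0.32 ± 0.20 (limma adjusted p = 0.418). CD5 ran from 4.80 through 5.32 to 5.82 after treatment, against 4.84, 5.30 and 6.90 before. It was lower in 11 tumours and higher in 10, with a change of -0.06 ± 0.09 (limma adjusted p = 0.774) whose sign depended on the tumours and weights used.

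The co-receptors differed in sign, and neither passed. CD8A, of killer T cells, ran from 4.77 through 5.15 to 5.40 after treatment and from 4.81 through 5.20 to 6.01 before, a change of -0.12 ± 0.07 with 15 of 21 tumours lower (SE, n = 21; limma adjusted p = 0.36). CD4, of helper T cells and, in the dog, of neutrophils, ran from 5.73 through 6.27 to 7.20 after treatment, against 5.68, 6.08 and 7.90 before. CD4 was higher in 14 of 21 tumours, a change of 0.14 ± 0.10 (limma adjusted p = 0.528), and its second probe set changed by 0.11 ± 0.10. Tumours 7 (1.53) and 15 (-1.25) lay furthest apart.

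CD4 was set against each of the other 8 genes by the difference of their changes within a tumour, a comparison chosen after the values were seen. CD4 and CD3E have nearly the same place on the array, and the change of CD4 exceeded that of CD3E by 0.37 ± 0.10, in 18 of 21 tumours (SE, n = 21; sign-flip permutation test, two-sided, adjusted over 8 pairs, p = 0.00356). The difference from CD3D was 0.71 ± 0.14, in 20 of 21 tumours, with an adjusted permutation p = 8e-05, and that from CD3G was 0.56 ± 0.12 with the same p. The differences from LCK (0.58 ± 0.13, adjusted permutation p = 0.000427) and CD2 (0.31 ± 0.12, p = 0.0334) passed too. Those from CD8A (0.25 ± 0.12, adjusted permutation p = 0.0647), CD247 (0.25 ± 0.13, p = 0.0656) and CD5 (0.20 ± 0.11, p = 0.0884) did not.

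**Figure D2:**
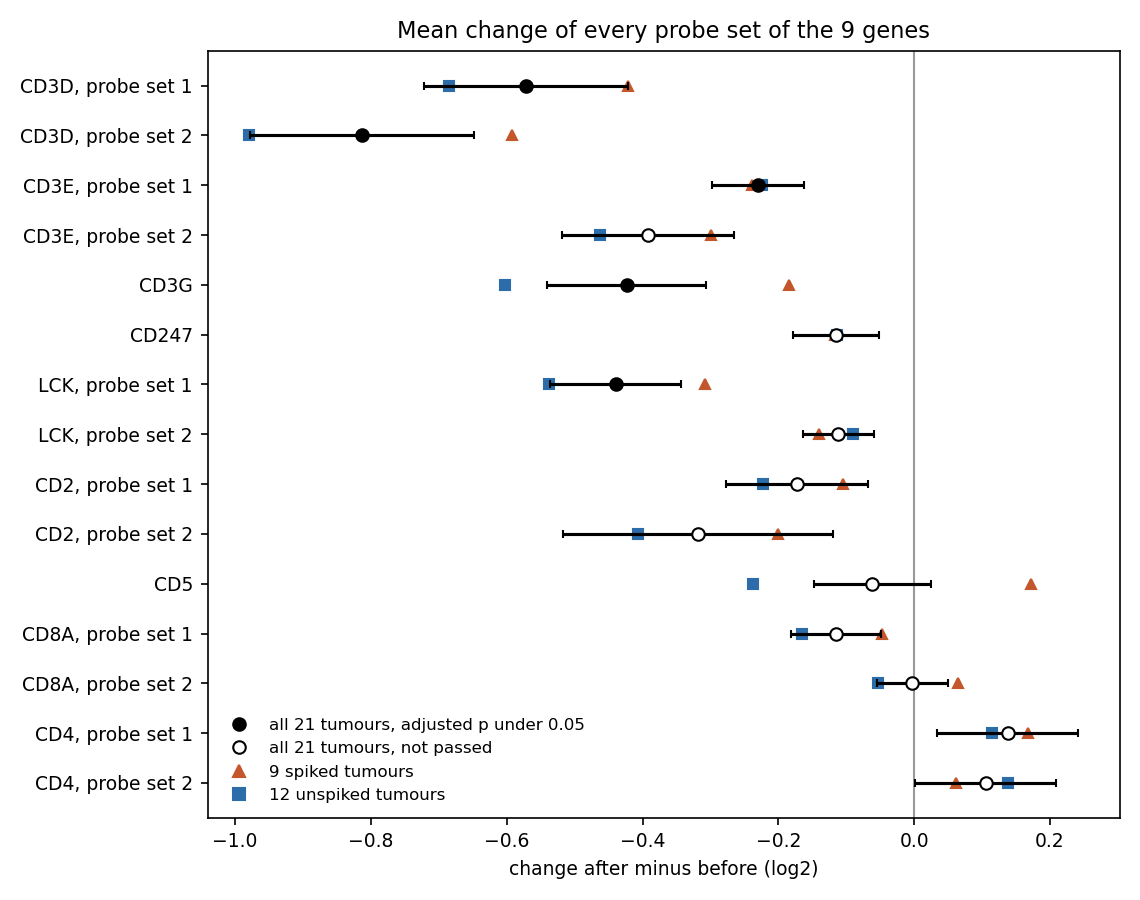
Mean change after minus before (log2, x) with its SE for the 15 probe sets of the 9 genes (black, n = 21 tumours; filled where the limma adjusted p is under 0.05), with the mean of the 9 spiked and of the 12 unspiked tumours as coloured marks. Probe set 1 is the one with the highest mean; both probe sets of CD3D lie below -0.5, and both of CD4 lie above 0.

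No label names a batch, but the spike-in controls added before labelling divide the tumours into 9 with high and 12 with low control levels, called spiked and unspiked. The border lay at a level of 5.29, between 4.36 and 6.23. The 3′ to 5′ contrast of actin and GAPDH controls, a sign of RNA quality, changed by a mean of 0.29 in spiked and -0.05 in unspiked tumours. In the spiked batch the mean changes were -0.42 for CD3D, -0.24 for CD3E, -0.19 for CD3G and -0.31 for LCK. In the unspiked batch they were -0.68 for CD3D, -0.22 for CD3E, -0.60 for CD3G and -0.54 for LCK. All 4 were thus below 0 in both batches. Neither batch alone gave a call among the 9 genes in limma, where 1.81% of all genes were lower in spiked tumours and 0.0% in unspiked ones. With unadjusted p-values, CD3D, CD3E and LCK (lower) and CD4 (higher) were under 0.05 in spiked tumours, and CD3D, CD3E, CD3G and LCK (all lower) in unspiked ones. Of all genes, 9.59% were lower and 10.9% higher by that rule in spiked tumours, and 5.73% were lower in unspiked ones. In spiked tumours the second probe sets of CD4 (0.06, unadjusted limma p = 0.407) and CD3E (-0.30, p = 0.115) were not under 0.05. In unspiked tumours that of LCK (-0.09, unadjusted limma p = 0.295) was not. Second probe sets were under 0.05 for CD3D in both batches, LCK in spiked and CD3E in unspiked tumours.

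The difference between batches did not pass for any of the 9 genes (limma interaction, adjusted over all probe sets, of which it called 0.00233%). By an unadjusted p under 0.05, which 7.1% of probe sets had, 1 of the 9 genes differed. That gene was CD5, with a mean change of 0.17 in spiked and -0.24 in unspiked tumours (limma p = 0.0154, adjusted p = 0.651). When that contrast entered the fit, CD3D, CD3G and LCK still passed and CD3E did not (adjusted p = 0.0761). Without the 4 tumours whose contrast changed by more than 0.5 in size, LCK (-0.49) alone passed, while the changes of CD3D (-0.55, limma adjusted p = 0.0892) and CD3G (-0.42, p = 0.109) stayed close to those over all tumours and that of CD3E was -0.17 (p = 0.214). The part of RNA quality in these changes was not tested beyond that.

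The SD of the change over tumours was larger than the size of the mean change in all 9 genes. It was 0.47 for LCK, with a mean change of -0.44, and 0.75 for CD3D, with -0.57. All 9 genes were lower in tumours 1, 4, 13 and 15, and in 17 of 21 tumours more of them were lower than higher. Tumours 10 and 14 had only 3 of the 9 lower, and tumours 11 and 18 had 4. The median change of the 9 genes was lowest in tumour 15 (-0.99), tumour 4 (-0.93) and tumour 1 (-0.71), and highest in tumour 11 (0.27).

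The lowest changes of CD3D and CD3G stood in the tumours with the highest first levels, as a description only, since a change contains the first level. CD3D was at 5.23 after and 7.26 before treatment in tumour 15, and at 4.44 after and 7.22 before in tumour 4. CD3G was at 4.55 after and 6.55 before in tumour 15. Tumour 17 was an exception, with CD3D at 5.64 after and 6.11 before, which made it the tumour with the highest CD3D after treatment. In the many tumours that began near the low end, such as tumour 19 (3.49 after, 3.56 before), a fall of that size could not have been seen. Without tumours 4 and 15, left out after their values were seen, CD3D (-0.38, limma adjusted p = 0.0165), CD3G (-0.28, p = 0.0302) and LCK (-0.35, p = 0.0148) still passed, and CD3E (-0.21, p = 0.0804) did not.

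The SD over tumours was smaller after than before treatment in the chosen probe sets of all 9 genes, against 58.0% of all genes. It was 0.59 after and 1.13 before for CD3D, 0.36 after and 0.79 before for CD3G, and 0.39 after and 0.46 before for CD3E. In the second LCK probe set the SD was slightly larger after (0.20) than before (0.19). No SD without tumours 4 and 15 is given here. These values are a description with no test.

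**Figure D3:**
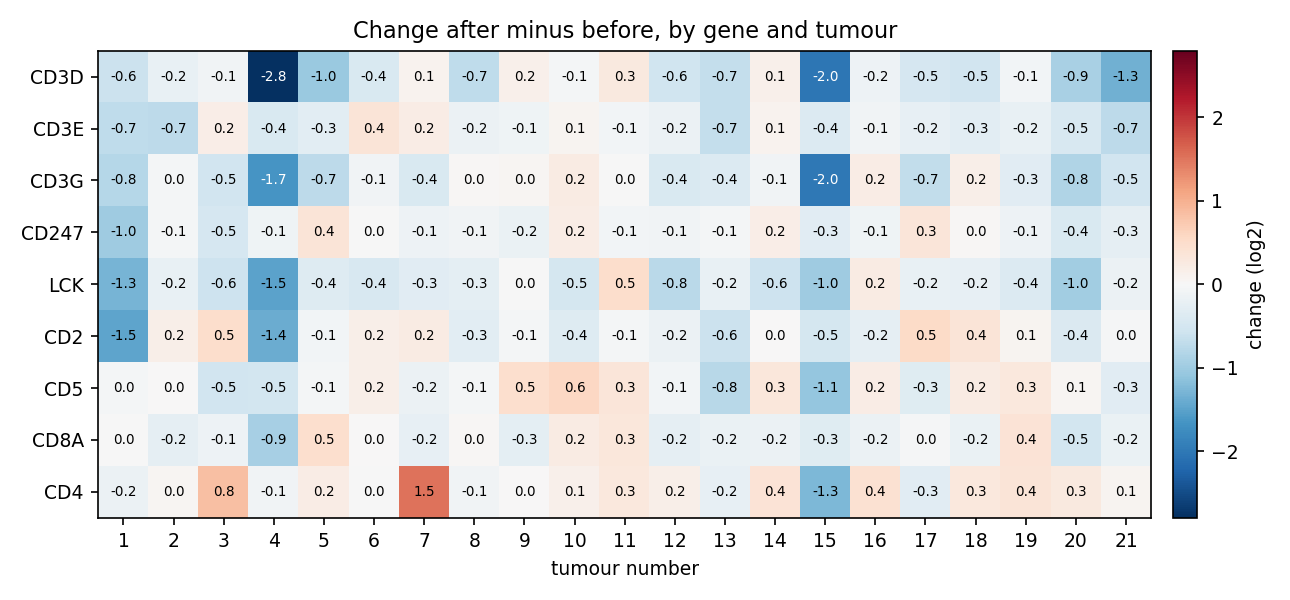
Change after minus before (log2, colour and printed value) of each of the 9 genes (rows) in each of the 21 tumours (columns). Tumours 1, 4, 13 and 15 are lower in every gene; the 2 deepest values are CD3D in tumour 4 (-2.78) and in tumour 15 (-2.03), and CD4 stands apart in tumour 7 (1.53).

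Before treatment CD3E went with 5 of the other 8 genes. Over 21 tumours the level of CD3E before treatment was related to that of CD3D (r = 0.646, rho = 0.681), CD3G (r = 0.58, rho = 0.448), CD2 (r = 0.684, rho = 0.695), CD5 (r = 0.613, rho = 0.549) and CD4 (r = 0.693, rho = 0.735). These passed a permutation test of Pearson's r (raw p from 0.00018 to 0.00565, adjusted over the 24 relations computed p from 0.00432 to 0.0194). By Spearman's rho CD3G did not pass (adjusted permutation p = 0.0975). CD247 (r = 0.00506), LCK (r = 0.36) and CD8A (r = 0.366) did not pass. Without tumours 3 and 15, farthest from the median of CD3E, the 5 values of r ran from 0.437 for CD3G to 0.638 for CD4. Within batches they ran from 0.336 for CD4 to 0.895 for CD3D in spiked, and from 0.77 for CD3G to 0.832 for CD4 in unspiked tumours. For CD247 r was 0.65 in spiked and -0.0518 in unspiked tumours. For LCK it was 0.422 in spiked and 0.586 in unspiked tumours, and for CD8A 0.679 and 0.483.

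Over all 21 tumours the changes were less closely tied. None of the 8 relations of the CD3E change with that of another of these genes passed by Pearson's r, the highest being CD2 (r = 0.468, adjusted permutation p = 0.0698) and CD3D (r = 0.468, same p). By rho the relation with CD3D passed (rho = 0.684, adjusted permutation p = 0.00558). Within batches r was higher in spiked than in unspiked tumours for CD3D (0.832 against 0.383) and CD5 (0.767 against 0.319). The same held for CD3G (0.697 against 0.293), CD247 (0.687 against 0.248) and CD8A (0.532 against 0.151). It was lower in spiked tumours for CD2 (-0.184 against 0.593), CD4 (-0.0306 against 0.543) and LCK (0.178 against 0.248). These batch differences were not tested. The CD3E change went with the mean change of 9 killer cell markers (r = 0.528, rho = 0.57, raw permutation p = 0.0136, adjusted p = 0.0407), with r = 0.517 without tumours 6 and 21, 0.605 in spiked and 0.52 in unspiked tumours. It did not pass with neutrophil markers (r = 0.0251, adjusted permutation p = 0.955). The CD4 change went with the mean change of 10 neutrophil markers (r = 0.59, rho = 0.536, raw permutation p = 0.00287, adjusted p = 0.0139) and of 8 general leukocyte markers (r = 0.585, rho = 0.555, raw permutation p = 0.00418, adjusted p = 0.0167). The first fell to r = 0.394 without tumours 7 and 15, with 0.264 in spiked and 0.719 in unspiked tumours. The second fell to r = 0.484, with 0.214 in spiked and 0.66 in unspiked tumours. Without the 2 tumours farthest out none of the 24 relations passed adjustment by Pearson's r, with 19 tumours left. Some values of r hardly moved. The rho of the CD3E and CD3D changes was then 0.693, and that of CD4 with neutrophil markers fell to 0.377. No test of rho without these tumours is given here.

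Of 53 other genes of T cells, 48 were measured, and few of them changed. After treatment 2 were lower, 4.17% of the 48 against 3.13% of all genes, and 1 was higher. Their median change was -0.04, with 33 of 48 below 0, against 46.9% of all genes. SH2D1A, an adaptor of SLAM family receptors, changed by -0.22 ± 0.07 (SE, n = 21; limma adjusted p = 0.0481, 18 tumours lower). CD96, a receptor of T and killer cells, changed by -0.23 ± 0.07 (adjusted p = 0.0491, 16 tumours lower). CSK, the kinase that restrains LCK and is made by many cell types, changed by 0.21 ± 0.06 (adjusted p = 0.0403, 5 tumours lower). The exchange factor VAV1 had a change of 0.23 ± 0.10 that did not pass (adjusted p = 0.198). All 3 calls were marginal: that on CD96 was lost in 16 and those on SH2D1A and CSK in 14 each when single tumours were dropped. The second probe sets of CD96 (0.11) and CSK (-0.0361) had the opposite sign, and the mean over the probe sets of CSK changed by 0.0727. SH2D1A lay at percentile 9.74 of the array. By an unadjusted p under 0.05, 9 of the 48 were lower, a larger share than the 1456 of 15115 (9.63%) among all genes. That difference was not tested.

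By role, the 18 surface receptors had a median change of -0.08, the 22 signalling genes of -0.01 and the 8 transcription factors of -0.04. A few more genes are given by role, chosen after their values were seen. The partner chain CD8B (0.05 ± 0.09), the costimulatory receptor CD28 (-0.12 ± 0.06) and the adaptor LAT (-0.07 ± 0.07) did not pass. Neither did the regulatory T cell factor FOXP3 (-0.05 ± 0.04), the T cell factor TCF7 (-0.04 ± 0.06) or the homing receptor CCR7 (-0.06 ± 0.06). Of the 48 genes 13 lay under the 25th percentile of the array, FOXP3 and CCR7 among them.

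**Figure D4:**
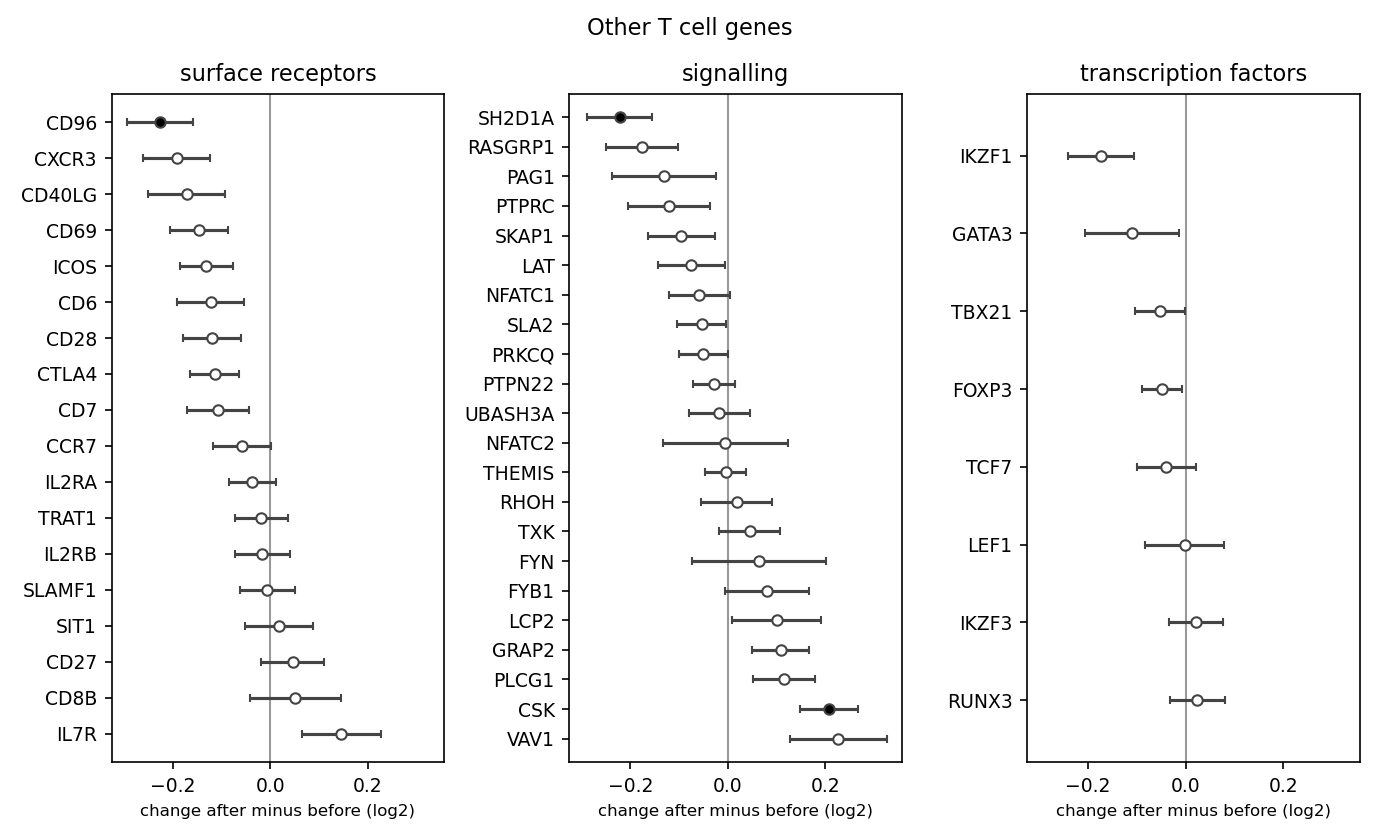
Mean change after minus before (log2, x) with its SE (n = 21 tumours) for the 48 other T cell genes measured, by role; filled points have a limma adjusted p under 0.05. CD96 and SH2D1A (lower) and CSK (higher) are filled, and most of the others lie within 0.2 of 0.

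Markers of other cells moved in part with the CD3 genes. Of 9 killer cell markers 6 were lower and 0 higher, where 3.13% of all genes were lower and 4.02% higher. Among the 6 were the granzyme genes GZMA (-0.61 ± 0.12) and GZMK (-0.45 ± 0.12) and NKG7 (-0.39 ± 0.09). The perforin gene PRF1 (-0.08 ± 0.05, limma adjusted p = 0.506) did not pass. Killer T cells share these genes with natural killer cells, and among natural killer receptor genes KLRD1 was lower (-0.35 ± 0.09, limma adjusted p = 0.0255), while NCR1 (-0.03 ± 0.04) and NCR3 (-0.05 ± 0.07) did not pass. The mean level over the killer cell list ran from 3.80 to 4.57 after treatment and from 4.22 to 5.41 before. Of 9 B cell markers 0 passed in limma (1 was lower by an unadjusted p under 0.05), and of 8 general leukocyte markers 0 passed (1 lower and 1 higher by an unadjusted p under 0.05). Their median changes were -0.02 and -0.08. Of the 8 fibroblast and sarcoma markers 1 was lower, the matrix gene SPARC (-0.28 ± 0.08, limma adjusted p = 0.0476), and 0 were higher. Their median change was -0.13, and their mean was lower in 15 of 21 tumours.

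Of 12 macrophage markers 1 was lower and 1 higher, where 3.13% of all genes were lower and 4.02% higher. Their mean levels ran from 6.92 to 9.39 after and from 6.94 to 9.43 before treatment. The largest changes were CD163 (0.54 ± 0.16, not passed), C1QB (-0.53 ± 0.18, not passed) and MSR1 (0.52 ± 0.13, higher). Of 10 neutrophil markers 3 were higher and 0 lower, led by S100A9 (1.08 ± 0.32) and LCN2 (0.82 ± 0.22), while S100A8 (0.67 ± 0.23) did not pass. The median change of the 10 was only 0.07. For 4 of them, MPO, ELANE, CTSG and CAMP, the change was below 0 and did not pass. Their mean levels ran from 4.67 to 6.93 after and from 4.72 to 7.25 before. The part of shifts in these cells in the T cell values was not tested.

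Other genes tracked the 9 over tumours. Each named gene over the 25th percentile was correlated with the mean of the 9 standardised levels before treatment, as a description with no test. The most alike were GPR171 (r = 0.948), a receptor gene, LOC480788 (r = 0.913), IDO1 (r = 0.91), a tryptophan-degrading enzyme, AOAH (r = 0.899), PPIF (r = 0.884) and the killer cell receptor CD226 (r = 0.883). KMO (r = 0.878), also of tryptophan breakdown, the interferon-induced GTPase GBP1 (r = 0.874), the chemokine receptor CXCR3 (r = 0.871) and RIPOR2 (r = 0.87) followed, CXCR3 being also one of the 48 T cell genes. Tumours 4 and 15 weighed on these values. Without them r was 0.89 for GPR171 and 0.764 for CXCR3 but 0.612 for PPIF.

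In the change, the 10 genes most like the mean of the 9 standardised changes were LOC480788 (r = 0.893), SLAMF7 (r = 0.863), GPR171 (r = 0.863), CD226 (r = 0.839), IFGGC1 (r = 0.826), KMO (r = 0.823), GZMK (r = 0.823), LOC480600 (r = 0.82), CD28 (r = 0.8) and CXCL10 (r = 0.799). Of these, 4 were also lower as a mean: LOC480788 (-0.64 ± 0.13), GPR171 (-0.56 ± 0.16), GZMK and CXCL10, a chemokine that attracts T cells (-0.96 ± 0.26). Without tumours 4 and 15 r was 0.794 for CXCL10 and 0.825 for LOC480788 but 0.543 for KMO, 0.575 for IFGGC1 and 0.599 for LOC480600. By rank correlation 3 of the 10 genes alike in level and 2 of the 10 alike in change were again among the first 10.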

How the data were processed

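The authors deposited log2 values, 1 per probe set and array, made with RMA and Affymetrix Expression Console, per the submitters' processing notes; versions were not given in the sources used here. Per the labels' protocols, tissue was kept in RNAlater and RNA was extracted with a Qiagen kit. Of 43035 rows, 111 were controls, which leaves 42924 probe sets to test. Of these, 29254 carry 1 symbol, 439 several and 13231 none here.

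The test was limma 3.58.1 (R 4.3.3), two-sided, over the 42 arrays with tumour as a block. The pairing follows the tumour codes. With values centred within each group, each of the 21 after arrays correlated best, among the before arrays, with that of its own tumour. Whether every tumour is from a separate dog is not in the labels. P-values therefore cover only the spread among these 21 tumours, whose number sets the precision. The genes and lists were chosen with earlier results of these data known. Genes are named by a fixed rule: all members, the called and the 4 most changed other T cell genes, up to 3 genes per marker list, and the 10 most alike; other genes were named after their values were seen. Permutation tests used 100000 resamples in NumPy 2.4.6 under Python 3.11.15, and Matplotlib 3.10.9 drew the figures. On simulated data over 42924 probe sets the limma fit recovered 46% of 50 probe sets changed by 0.25, 96% of 50 changed by 0.5 and 100% at 1, with 5 false calls. The simulated differences were normal and independent between probe sets. Correlated probe sets and outlying tumours, as in these data, were not simulated. Alternatives covered the block, weights, normalisation, filters, probe set choice and tumours left out.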

Additional observations from a re-analysis of the deposited data

How the results depend on the processing

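Leaving out 1 tumour at a time gave 2 to 4 of the 9 genes lower, with 2 without tumour 1, 20 or 21, and 0 higher. LCK and CD3D passed in all 21 such fits. CD3G was lost without tumour 1, 20 or 21. Of the other T cell genes, 0 to 2 were lower and 0 to 1 higher. With no replicate block 0 of the 9 genes, 0 other T cell genes lower and 0 higher passed. A random replicate block kept 3 of the 9 and 0 other T cell genes higher. The count of the 9 genes lower was 1 with a filter at the median level, which leaves CD3E and drops CD3D, CD3G and LCK. It was 0 in each batch alone, 1 without the tumours of changed 3′ to 5′ contrast and 0 at a fold of at least 1.5. With the second probe set it was 2, CD3D and CD3G, but CD3G has a single probe set, which was used again. The second probe sets of CD3E and LCK did not pass. The count of other T cell genes lower was 1 with array weights, without tumours 13 and 15, without tumours 4 and 15 and with the mean over probe sets. It was 0 with the 3′ to 5′ covariate, the filter, each batch alone, the tumours of unchanged contrast, the second probe set and the fold limit. The count higher was 0 with renewed quantile normalisation, the 3′ to 5′ covariate, the unspiked batch, the tumours of unchanged contrast, the mean over probe sets, the second probe set and the fold limit. CD5 turned its sign with array weights (0.0282), in the spiked batch (0.17), without tumours 13 and 15 (0.0292) and without tumours 4 and 15 (0.0164). With the second probe set CD96 (0.11) and CSK (-0.0361) turned. By Pearson's r 8 of 24 relations passed, against 0 without the 2 farthest tumours and 3 in the spiked batch. The causes were not tested. The median level of CD3G lay under the 25th percentile of the array (3.95) both before (3.87) and after treatment (3.83). For CD3D the lowest first levels and the median after treatment (3.93) lay under it. This limits how far CD3D and CD3G can be seen to fall.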
